A study of Mus musculus with 10 samples.

Results

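The 10 genes described here encode subunits of the transcription factor NF-κB and proteins that restrain or modify its activity: Nfkb1, Nfkb2 and Relb (subunits), Nfkbia, Nfkbie, Nfkbiz and Bcl3 (inhibitor of κB, or IκB, family), and Tnfaip3, Tnfaip2 and Birc3 (genes induced by the pathway). They were chosen by gene symbol among the 39017 genes of the count table, each symbol matching exactly 1 row. Because the list was drawn up with the comparison of the groups in view, the difference between the groups is described for these genes, and the calls of fits across all genes are given beside their share over all genes, not as evidence.

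The libraries came from lung tumours of C57BL/6 mice of the KP model, whose alleles include floxed Trp53. Every mouse, controls included, received an adenovirus (Ad5CC10-Cre) with Cre under the CC10 promoter of club cells, the secretory cells of the bronchioles. Tumours were collected 20 weeks and 1 day later, dissociated and depleted of CD45-positive immune cells, and polyadenylated RNA of the remaining cells was sequenced, with 5 Control libraries (labelled heterozygous fl/wt) and 5 Glut1KO libraries (KPG1, labelled homozygous fl/fl for Slc2a1, which encodes the glucose transporter Glut1). The study's methods speak of wild-type and heterozygous controls. The comparison asks how tumours differ when Glut1 is deleted. All 5 controls were male. Glut1KO replicates 1 to 3 were female and replicates 4 and 5 male. The deposited names carry a further number whose meaning no label gives, possibly the animal: Control replicates 1, 2 and 5 shared one, Control replicates 3 and 4 another, and Glut1KO replicates 4 and 5 one more. No label states that libraries came from separate animals, so p-values measure the spread between these libraries only.

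Totals ran from 35.3 to 49.8 M counts (M, mega), and levels are given as counts per M scaled by the trimmed mean of M-values (TMM-scaled CPM). The deleted gene did not separate the groups: Slc2a1 stood at 118, 86.7, 92.6, 103 and 73.2 CPM in Control replicates 1 to 5 and at 60.3, 42.5, 34.6, 92.4 and 103 CPM in Glut1KO replicates 1 to 5. Both male Glut1KO libraries thus lay inside the control range, and "labelled Glut1-KO" below means the label only. Epithelial and alveolar type 2 markers summed to between 26499 and 69854 CPM in controls and between 48427 and 62801 CPM in libraries labelled Glut1-KO, and all 10 of these markers passed the filter on low counts. Leukocyte RNA was low but present in every library, as given below. In bulk RNA, fewer cells of a type and less RNA per cell cannot be told apart.

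NF-κB dimers are held in the cytoplasm by IκB proteins until kinases activated by cytokine or Toll-like receptors mark the inhibitors for destruction. The freed dimers bind κB motifs in promoters and induce, among many genes, their own inhibitors and subunits, so that the response limits itself. In lung epithelium the pathway is known for driving chemokines and survival genes during inflammation.

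The promoters were read first, since self-induction acts through them. RefSeq windows (GRCm38.p6, the assembly of the mm10 build used for the files) covering the 250 bases before a start site were at hand for 7 of the 10 genes, in 10 windows. Nfkb1, Relb and Nfkbiz were not among them. Both strands were searched for the κB consensus and for a looser form (GGG, any 5 bases, then CC), of which every consensus match is also an instance. The consensus was found in 4 of 7 genes (Nfkbia, Nfkbie, Tnfaip3 and Nfkb2) and in 6 of the 10 windows, against 4.46% of 27025 genes and 3.9% of 32851 windows of the same length. The looser form was in all 7 genes and in 48.7% of all genes. The windows of Bcl3, Birc3 and Tnfaip2 held no consensus match.

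The upstream windows of both IκB genes with a match are shown whole, because Nfkbia was the member whose groups stood apart and Nfkbie its closest relative on the list. They are written 5′ to 3′ on the gene's strand with the κB match in capitals. That of Nfkbia spans chr12:55492648-55492897 on the minus strand with the match at bases -29 to -20 from the start site (read on the opposite strand), and that of Nfkbie spans chr17:45555450-45555699 on the plus strand with the match at -106 to -97.
Nfkbia: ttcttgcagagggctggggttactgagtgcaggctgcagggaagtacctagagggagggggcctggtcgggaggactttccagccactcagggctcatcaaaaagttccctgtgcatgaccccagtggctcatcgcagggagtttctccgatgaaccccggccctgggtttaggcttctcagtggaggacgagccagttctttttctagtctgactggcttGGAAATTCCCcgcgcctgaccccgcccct
Nfkbie: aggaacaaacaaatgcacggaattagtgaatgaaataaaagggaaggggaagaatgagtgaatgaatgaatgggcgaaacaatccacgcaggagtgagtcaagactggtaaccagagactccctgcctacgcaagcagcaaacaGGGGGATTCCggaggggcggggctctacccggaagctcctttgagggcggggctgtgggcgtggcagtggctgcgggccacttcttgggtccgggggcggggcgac

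For Tnfaip3 and Nfkb2, whose windows with matches lie wholly or, in Tnfaip3, but for a few bases inside the GENCODE bounds of the gene, only the matches are shown, with up to 10 bases on either side. The window of Tnfaip3 with matches held 2 of them, shown within chr10:19015516-19015545 (the match at bases -125 to -116, on the gene's minus strand) and chr10:19015411-19015432 (the match at bases -12 to -3, on the opposite strand), and both are written along the minus strand. The most upstream window of Nfkb2 held one shown within chr19:46304688-46304717 (the match at bases -39 to -30, on both strands, with a further overlapping match 1 base on) and one within chr19:46304716-46304736 (the match at bases -11 to -2, on the gene's plus strand), both written along the plus strand. The other windows of Nfkb2 held 1 match each.
Tnfaip3 upstream match: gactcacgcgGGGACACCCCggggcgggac
Tnfaip3 downstream match: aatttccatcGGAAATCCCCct
Nfkb2 upstream match: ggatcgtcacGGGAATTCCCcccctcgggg
Nfkb2 downstream match: ggggccgaaaGGGGCTTTCCc

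**Figure D1:**
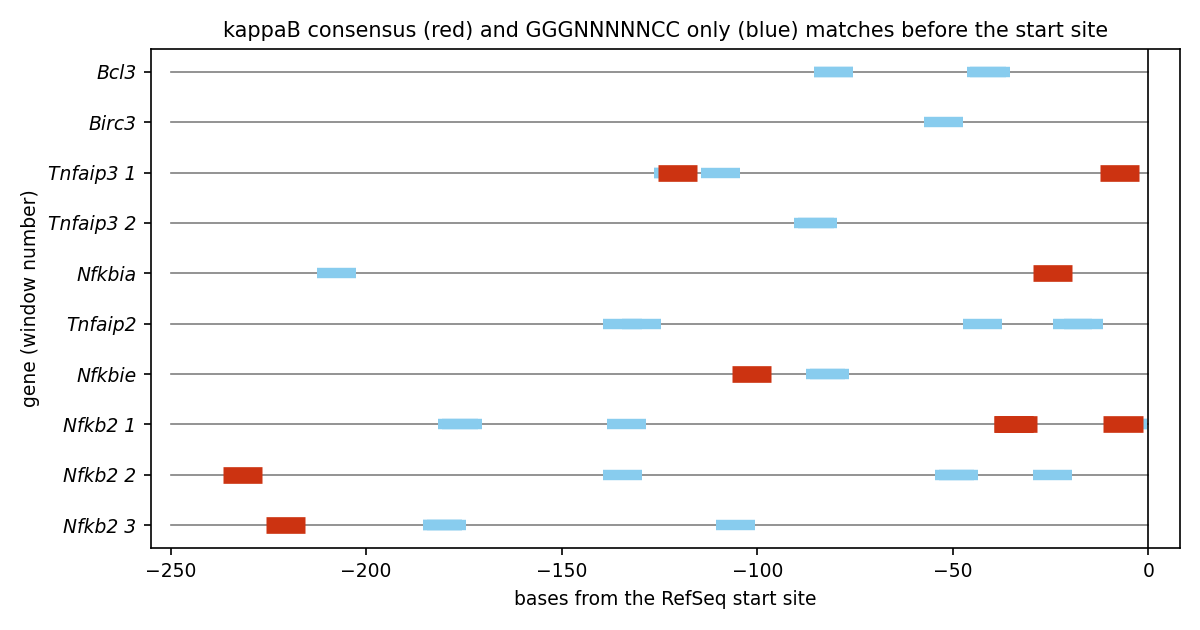
Position of each match in the 250 bases before the RefSeq start sites of 7 genes (x axis, bases from the start site; y axis, gene and window). Red marks the κB consensus and blue the looser form alone; red appears in 6 of 10 windows.

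A match is a description of the sequence and says nothing of whether a factor was bound in these cells. The fitted log2 differences described below were -1.02 for Tnfaip3, -0.62 for Nfkbia, -0.53 for Nfkbie and -0.31 for Nfkb2, which had the consensus, and -0.56 for Tnfaip2, -0.09 for Bcl3 and 0.14 for Birc3, which did not in these windows. No comparison was made between these sets.

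Across the 10 genes, 9 had a negative log2 difference in the libraries labelled Glut1-KO, against 50.7% of all 15922 genes tested, and the median was -0.42 against -0.005 over all genes. No member, and 0% of all genes, passed an adjusted p of 0.05 in limma. With limma, 2 members were under an unadjusted p of 0.05 (7.68% of all genes), with edgeR 0 were called (0% of all genes), and DESeq2 called 1, Nfkbia, as lower (0.676% of 15538 genes). In 1 member, again Nfkbia, the 5 libraries labelled Glut1-KO all lay below the 5 controls, as in 1.06% of all genes. As the choice of genes used this contrast, nothing is read from these counts. The median rested partly on 1 library and became -0.20 without Control replicate 1, where limma again called 0 members.

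**Figure D2:**
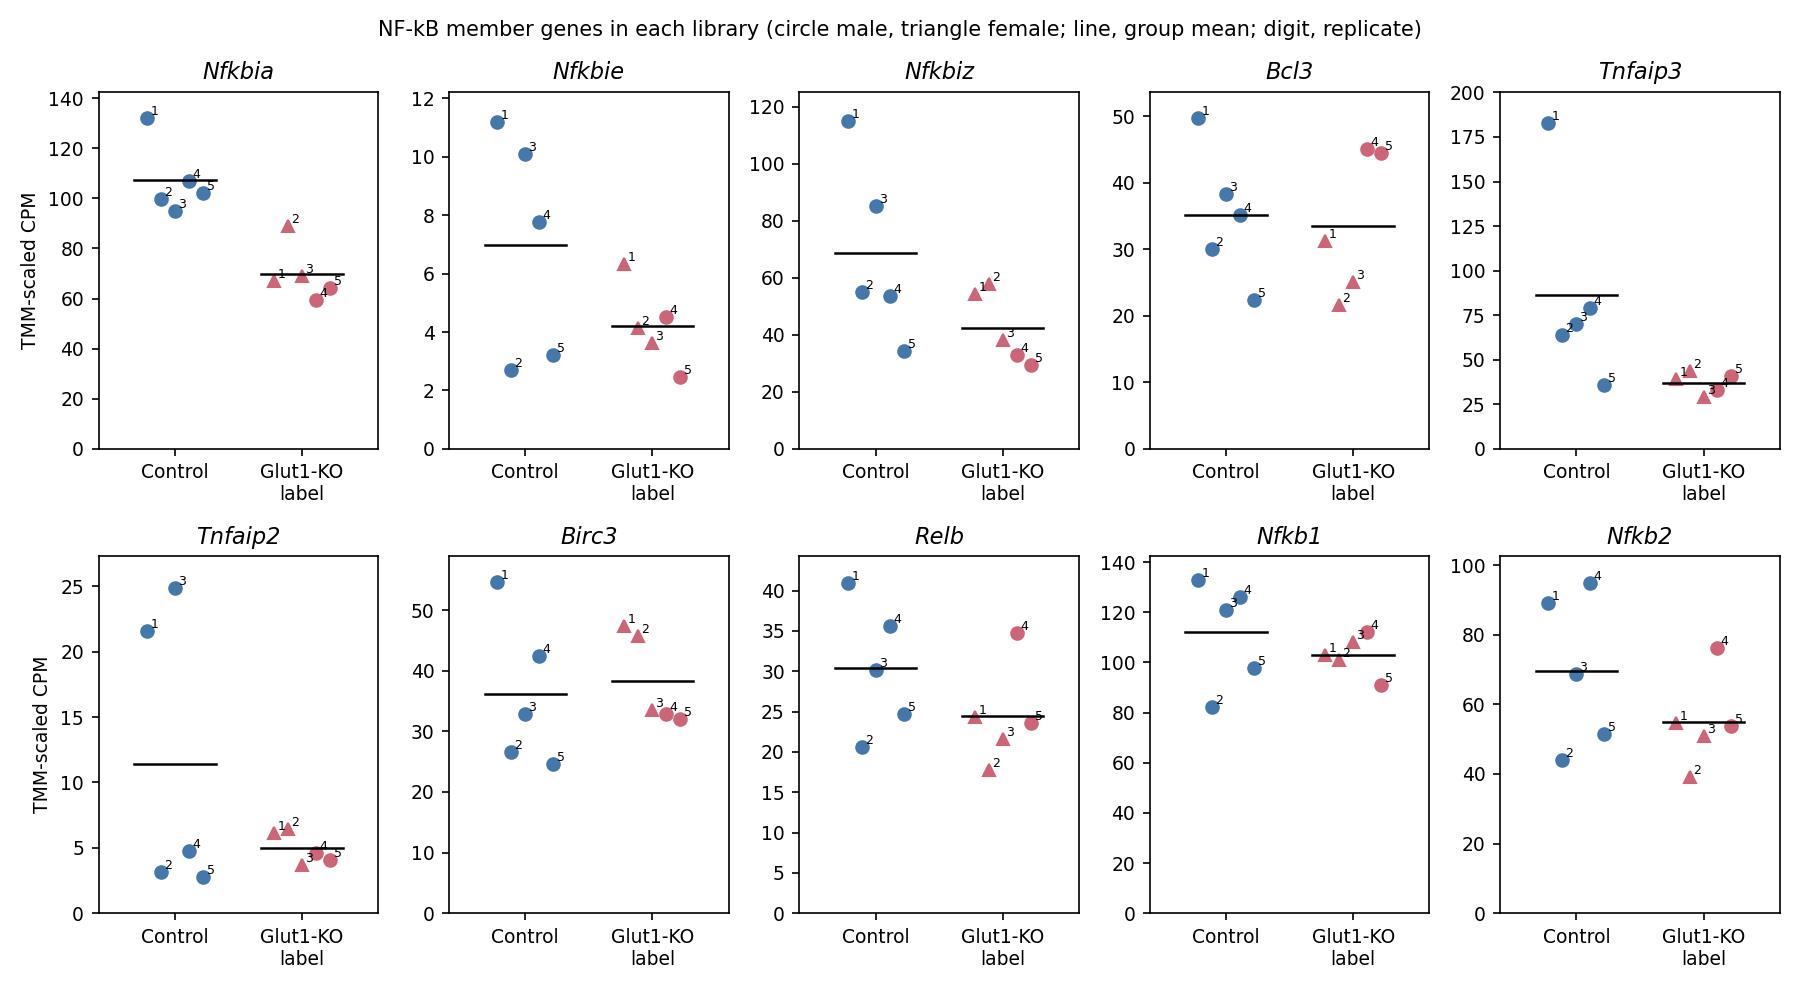
TMM-scaled CPM (y axis) of each of the 10 genes in 5 Control and 5 Glut1KO libraries, with the group mean as a line and the replicate number beside each point; circles are male and triangles female. Only in Nfkbia do the groups not overlap, and Control replicate 1 is the highest point in 8 of 10 panels.

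Among the inhibitors, Nfkbia differed most evenly. Nfkbia (ENSMUSG00000021025, chr12:55489410-55492647, minus strand) encodes IκBα, the inhibitor that is destroyed and resynthesised first after a stimulus. It stood at 132, 99.6, 95.1, 107 and 102 CPM in Control replicates 1 to 5 and at 67.0, 88.8, 68.8, 59.6 and 64.4 CPM in Glut1KO replicates 1 to 5. Every library labelled Glut1-KO, of either sex, lay below the lowest control. The means were 107 ± 14.6 CPM (SD, n = 5) and 69.7 ± 11.2 CPM (SD, n = 5), a level of 65.1% of the control mean and a log2 difference of -0.62 (SE 0.13).

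Nfkbie (ENSMUSG00000023947, chr17:45555703-45563169, plus strand) encodes IκBε, an inhibitor that is resynthesised later. It was among the lowest of the members, at 11.2, 2.71, 10.1, 7.76 and 3.21 CPM in controls and 6.33, 4.14, 3.62, 4.51 and 2.47 CPM in libraries labelled Glut1-KO. Control replicates 1, 3 and 4 lay above all libraries labelled Glut1-KO, and Control replicates 2 and 5 within their range. Its fitted log2 difference was -0.53 (SE 0.46), -0.31 without Control replicate 1, -0.86 without Control replicate 2 and -0.82 with male libraries only.

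Nfkbiz (ENSMUSG00000035356, chr16:55811375-55838899, minus strand) encodes IκBζ, a nuclear member of the family that co-activates a subset of targets. It stood at 115, 55.0, 85.3, 53.7 and 34.2 CPM in controls and at 54.2, 57.8, 38.1, 33.1 and 29.5 CPM in libraries labelled Glut1-KO. Control replicates 1 and 3 stood above the rest and the other controls lay among the libraries labelled Glut1-KO. The log2 difference was -0.61 (SE 0.32), -0.40 without Control replicate 1 and -1.01 with male libraries only.

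Bcl3 (ENSMUSG00000053175, chr7:19808462-19822770, minus strand), a nuclear IκB protein that works as a co-activator with subunit homodimers, was the member with the widest log2 difference by sex. It stood at 49.7, 30.1, 38.4, 35.1 and 22.4 CPM in controls, at 31.3, 21.6 and 25.1 CPM in female Glut1KO replicates 1 to 3 and at 45.1 and 44.5 CPM in male Glut1KO replicates 4 and 5. The groups overlapped along most of their range. The log2 difference of -0.09 (SE 0.26) turned to 0.40 with male libraries only, and ran from -0.23 without Control replicate 5 to 0.05 without Control replicate 1 and 0.06 without Glut1KO replicate 2.

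Of the induced genes, Tnfaip3 (ENSMUSG00000019850, chr10:19000910-19015657, minus strand), whose product edits ubiquitin chains on signalling proteins and so shuts the pathway off, differed most. It stood at 183, 63.7, 69.9, 79.2 and 36.1 CPM in controls and at 39.3, 43.6, 28.9, 32.8 and 41.0 CPM in libraries labelled Glut1-KO. Control replicates 1 to 4 lay above every library labelled Glut1-KO, Control replicate 1 more than any other, while Control replicate 5 lay within their range. The means were 86.3 ± 56.2 CPM (SD, n = 5) and 37.1 ± 6.1 CPM (SD, n = 5), with a log2 difference of -1.02 (SE 0.36) and of -0.70 without Control replicate 1.

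Tnfaip2 (ENSMUSG00000021281, chr12:111442469-111455018, plus strand) is induced by tumour necrosis factor (TNF). Its levels were low and uneven, at 21.6, 3.17, 24.9, 4.78 and 2.77 CPM in controls and 6.11, 6.47, 3.71, 4.57 and 4.05 CPM in libraries labelled Glut1-KO. Control replicates 1 and 3 alone lay above the libraries labelled Glut1-KO, and the lowest values of all were also controls. On the log2 scale the difference was -0.56 (SE 0.65), -0.14 without Control replicate 3, -0.91 without Control replicate 2, -1.20 with edgeR and -1.09 with libraries summed by name number. GENCODE places the antisense gene Gm40578 over 314 exon bases of Tnfaip2, and how strand was used in counting is not given in the sources used here.

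Birc3 (ENSMUSG00000032000, chr9:7848699-7873186, minus strand), a ubiquitin ligase of the inhibitor of apoptosis family that acts next to TNF receptors, was the 1 member with a positive difference. It stood at 54.6, 26.6, 32.9, 42.4 and 24.6 CPM in controls and at 47.4, 45.7, 33.5, 32.9 and 32.1 CPM in libraries labelled Glut1-KO. The libraries labelled Glut1-KO all lay inside the control range. Its fitted log2 difference was 0.14 (SE 0.23), 0.02 without Control replicate 5, 0.30 without Control replicate 1 and -0.08 with male libraries only.

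The subunits had log2 differences between -0.31 and -0.10. Nfkb1 (ENSMUSG00000028163, chr3:135584655-135691547, minus strand), the precursor of the canonical DNA-binding subunit, stood at 133, 82.4, 121, 126 and 97.7 CPM in controls and at 103, 101, 108, 112 and 90.9 CPM in libraries labelled Glut1-KO, a log2 difference of -0.10 (SE 0.14). Leaving out 1 library gave -0.21 (without Control replicate 2) to -0.03 (without Control replicate 1). All 5 libraries labelled Glut1-KO were inside the control range.

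Nfkb2 (ENSMUSG00000025225, chr19:46304320-46312385, plus strand), the precursor of the non-canonical subunit, stood at 89.1, 44.0, 68.8, 94.9 and 51.5 CPM in controls and at 54.7, 39.0, 51.0, 76.3 and 53.8 CPM in libraries labelled Glut1-KO. Glut1KO replicate 4 lay among the high controls, and the groups overlapped. The log2 difference was -0.31 (SE 0.24), -0.47 without Control replicate 2, -0.19 without Control replicate 4 and -0.06 with male libraries only. Psd and AC114539.1 overlap Nfkb2 on the other strand by 299 and 531 exon bases; Psd had 202 counts in all libraries together against 25563 for Nfkb2.

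Relb (ENSMUSG00000002983, chr7:19606217-19629438, minus strand), the partner of the Nfkb2 product in the non-canonical dimer, ran alongside it, at 41.0, 20.6, 30.2, 35.6 and 24.7 CPM in controls and 24.3, 17.8, 21.6, 34.8 and 23.6 CPM in libraries labelled Glut1-KO. As for Nfkb2, Glut1KO replicate 4 was the highest of its group and lay among the controls. The log2 difference was -0.31 (SE 0.22), -0.45 without Control replicate 2, -0.19 without Control replicate 1 and -0.05 with male libraries only.

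**Figure D3:**
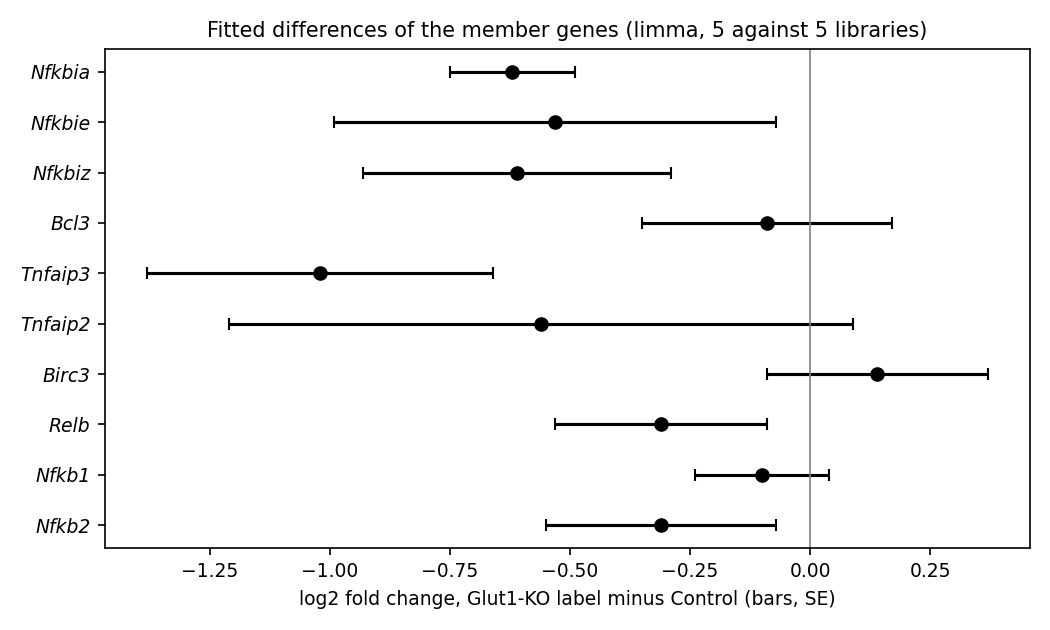
Fitted log2 difference of each of the 10 genes, libraries labelled Glut1-KO minus controls (x axis), with SE as bars. The values run from -1.02 (Tnfaip3) to 0.14 (Birc3), and the SE is narrowest for Nfkbia.

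Levels between genes were compared per length, as TMM-scaled CPM per kb of exon. In controls Nfkbia was highest at 66.5 ± 9.09 CPM per kb (SD, n = 5), with no overlap with Nfkb2 next at 15.2 ± 4.88. Bcl3 (14.2), Nfkbiz (13.7), Tnfaip3 (11.9), Nfkb1 (9.29), Relb (7.83) and Birc3 (7.23 CPM per kb) followed, each overlapping its neighbour in the range over controls. Nfkbie and Tnfaip2 closed the order at 2.30 CPM per kb each, and overlapped each other, while every control value of Birc3 lay above every one of Nfkbie. In libraries labelled Glut1-KO, Nfkbia was again highest at 43.3 ± 6.98 CPM per kb, and Tnfaip3 moved from rank 5 to rank 8, at 5.14 ± 0.844 CPM per kb. The union of annotated exons of Nfkb1 is long (12061 bases), which lowers its value on this scale.

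The controls were more uneven than the libraries labelled Glut1-KO for most members. The SD of log2 CPM was larger in controls for 8 of the 10 genes, against 45.5% of all genes tested. Its median over the members was 0.48 in controls and 0.35 in libraries labelled Glut1-KO, against 0.32 and 0.35 over all genes tested. Summed over the 10 genes, Control replicates 1 to 5 had 829.9, 428, 576, 587 and 399 CPM and Glut1KO replicates 1 to 5 had 434, 426, 382, 435 and 386 CPM. Control replicates 1, 3 and 4 thus lay above all libraries labelled Glut1-KO, whereas Control replicates 2 and 5 lay among them. Control replicate 1 was the highest of the 10 libraries for 8 genes. Control replicate 5 was the lowest control for 5 genes and Control replicate 2 for 4. Control replicates 1, 2 and 5, which share a name number, therefore included both the highest and the lowest controls.

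**Figure D4:**
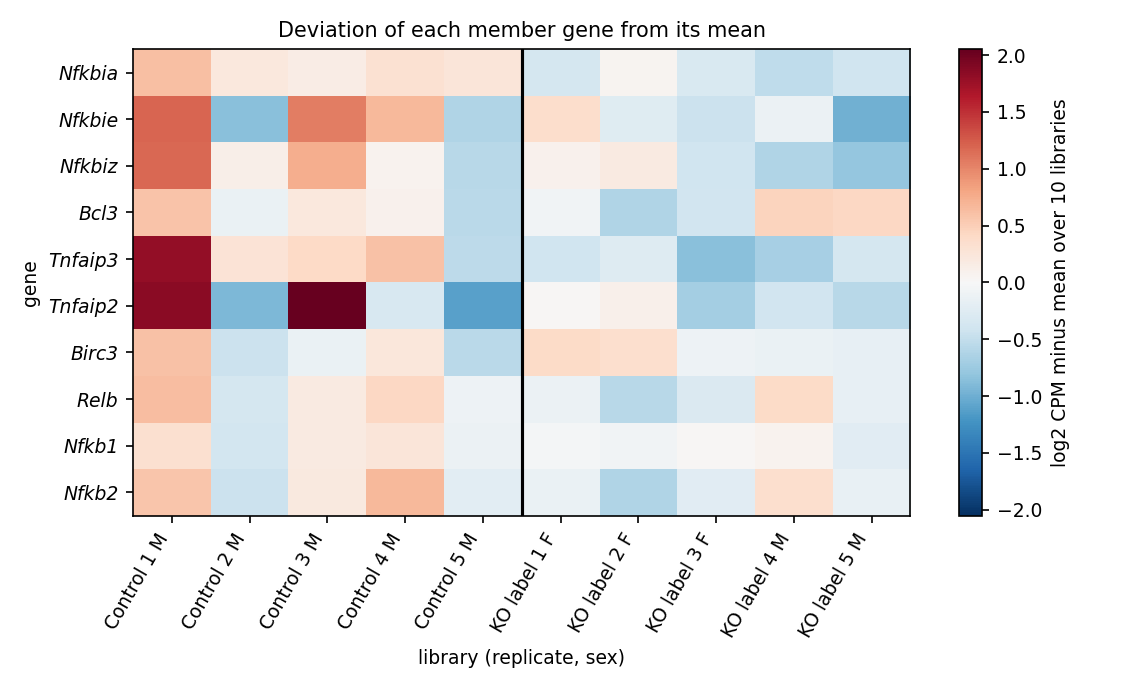
Log2 TMM-scaled CPM of each gene (rows) in each library (columns, with replicate and sex), minus the gene's mean over 10 libraries; red is above and blue below the mean. Control replicate 1 is above the mean in all 10 genes, and the scale is set by Tnfaip2 and Tnfaip3.

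Contrasts inside each label are not the contrast the list was drawn up on, although earlier results of these data were known, and they were tested with limma across all 15922 genes. Female minus male libraries labelled Glut1-KO gave 0 of 10 members past the threshold (8 genes, 0.0502%, over all genes), with adjusted p from 0.202 to 0.996. At an unadjusted p under 0.05 stood 1 member (18.6% of all genes), and edgeR and DESeq2 called 0 members as well (0.0754% and 7.84% of all genes). That member was Bcl3, at a mean of 26.0 CPM in 3 female and 44.8 CPM in 2 male libraries, a log2 difference of -0.80 (SE 0.29, limma adjusted p 0.202). The ranges of the sexes did not overlap in 4 members, Nfkbia, Nfkbiz, Birc3 and Bcl3, as in 40.8% of all genes. In the first 3 the female libraries were higher, by 0.26 (SE 0.18), 0.66 (SE 0.46) and 0.36 (SE 0.32) on the log2 scale. Sex, name number and the Slc2a1 level go together in this contrast and cannot be told apart.

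Control replicates 1, 2 and 5 minus Control replicates 3 and 4 gave 0 members past the threshold in limma (0% of all genes), 0 at an unadjusted p under 0.05 (2.39% of all genes), and 0 with edgeR (0% of all genes) or DESeq2 (0.133%). The adjusted p was 0.999 for each member. The largest log2 differences were -1.0 (SE 0.84) for Tnfaip2 and -0.99 (SE 0.53) for Nfkbie. In no member did these libraries split without overlap, against 16.1% of all genes.

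The rest of the pathway was followed through 84 further genes in lists by role, of which 81 passed the filter on low counts. None passed limma's threshold, 5 were under an unadjusted p of 0.05 (7.68% of all genes), and edgeR called 0% of all genes. DESeq2 called 3, Tnf, Gadd45b and Ier3, all lower (0.676% of all genes). Fitted values were negative in 54 (50.7% of all genes) and positive in 27, with a median log2 difference of -0.08 (-0.005 over all genes).

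The other subunits and inhibitors, Rela, Rel, Nfkbib and Nfkbid, had a median of -0.23, with 3 of 4 negative. Rela, the activating subunit of the canonical dimer, averaged 91.3 ± 17.2 CPM in controls against 80.0 ± 14.8 CPM in libraries labelled Glut1-KO (SD, n = 5 each; log2 difference -0.19, limma adjusted p 0.799). Among 10 kinases and scaffolds 8 were negative (median -0.16), and among 24 adaptors and ubiquitin enzymes 15 (median -0.02). Tnip1, which binds the Tnfaip3 product, had a log2 difference of -0.41 (limma adjusted p 0.701). The 12 receptors were split evenly, 6 and 6, with a median of -0.01. Tlr2, a Toll-like receptor, was the most positive of them at 0.69 (limma adjusted p 0.658).

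Of 10 ligands 7 passed the filter, with 5 negative and a median of -0.15. Tnf, the cytokine after which Tnfaip2 and Tnfaip3 are named, stood at 50.7, 6.48, 10.3, 20.7 and 6.46 CPM in controls and at 6.50, 3.52, 3.93, 6.59 and 2.63 CPM in libraries labelled Glut1-KO. Its order over the controls resembled that of the members, with Control replicate 1 far above the rest. The log2 difference was -1.60 (SE 0.64, limma adjusted p 0.608). Il1b, a cytokine of myeloid cells, went the other way, at 6.49 ± 2.10 CPM and 13.1 ± 4.25 CPM (SD, n = 5 each; log2 difference 0.98, SE 0.30, limma adjusted p 0.454).

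Among 24 targets 17 were negative, with a median of -0.20. Gadd45b, a stress-induced survival gene, was even within groups and did not overlap between them, with 51.6 ± 2.67 CPM in controls against 29.8 ± 6.43 CPM in libraries labelled Glut1-KO (SD, n = 5 each; log2 difference -0.82, SE 0.15, limma adjusted p 0.23). Ier3, an early survival gene, stood at 137 ± 45.2 and 76.1 ± 10.6 CPM (SD, n = 5 each; log2 difference -0.80, SE 0.20, limma adjusted p 0.37). Cxcl1, a neutrophil chemokine, stood at 104, 23.9, 21.7, 23.6 and 17.2 CPM in controls and at 11, 10.7, 7.97, 16.3 and 10.2 CPM in libraries labelled Glut1-KO. All controls lay above all libraries labelled Glut1-KO, and Control replicate 1 far above the others (log2 difference -1.43, SE 0.49, limma adjusted p 0.526).

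Genes with a pattern within groups like the members' mean were sought among the 11332 tested genes outside the pathway lists with a mean of at least 5 CPM. After group means were removed, Pearson's r over 10 libraries with the mean standardized deviation of the members was 0.98 for Vps53, 0.98 for Uggt1, 0.96 for BC017643, 0.96 for Sgcb and 0.95 for Sox13, the 5 highest of these. Without Control replicates 1 and 5, the libraries farthest from the median, the values were 0.95, 0.95, 0.88, 0.86 and 0.86. The mean described the members unevenly: their own r, each with a mean that includes it, ran from 0.45 (Nfkbia) to 0.91 (Nfkbie), and without those libraries from 0.05 (Nfkbia) to 0.93 (Nfkbie), with 0.23 for Bcl3 and 0.41 each for Tnfaip3 and Nfkbiz. Vps53 stood at 72.7, 43.0, 58.8, 57.8 and 42.5 CPM in controls, with replicates 1, 3 and 4 above replicates 2 and 5 as in the members' sum, and at 59.1, 52.2, 52.3, 54.0 and 47.7 CPM in libraries labelled Glut1-KO. Its log2 difference between the groups was -0.02 (SE 0.16). These points share libraries and depth, and the values are a description.

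Markers of other cell types and of tissue dissociation were set beside the members; none passed limma's threshold. The 17 genes of an early response to dissociation (Fos, Jun, Atf3 and others) summed to 7965, 7215, 9286, 7566 and 8553 CPM in Control replicates 1 to 5 and to 6642, 7150, 7348, 5082 and 4551 CPM in Glut1KO replicates 1 to 5. The group ranges overlapped only through Glut1KO replicate 3 and Control replicate 2. The fitted values of 16 of 17 were negative (50.7% of all genes), with a median of -0.35. With limma, 7 were under an unadjusted p of 0.05 (7.68% of all genes). In 4, all libraries labelled Glut1-KO lay below all controls (1.06% of all genes). DESeq2 called 4 as lower, Jun, Atf3, Klf4 and Klf6 (0.676% of all genes). Control replicate 1, the highest for the members, ranked behind Control replicates 3 and 5 for this sum. The part of dissociation in the members' values was not tested.

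Leukocyte markers had overlapping sums in the groups, but most single markers had higher fitted values in libraries labelled Glut1-KO. Their 17 genes summed to between 322 and 469 CPM in controls and between 343 and 595 CPM in libraries labelled Glut1-KO, and 13 of the 15 that passed the filter had higher and 2 lower fitted values (median 0.59), where 50.7% of all genes had lower ones. With limma, 7 of them were under an unadjusted p of 0.05 (7.68% of all genes). DESeq2 called 5 of them as higher, Ptprc, Laptm5, Coro1a, Tyrobp and Fcer1g (0.708% of all genes). Ptprc, which encodes CD45, stood at 2.76 ± 0.451 and 7.92 ± 2.19 CPM (SD, n = 5 each). Laptm5, Csf1r and Tyrobp averaged 3.73, 4.55 and 1.4 CPM in controls and 7.21, 8.73 and 2.88 CPM in libraries labelled Glut1-KO. The leukocyte sums thus rested mainly on other genes of the list and do not show the differences in these markers. Endothelial markers were higher in 10 of 10 (median 0.64; sums of 130.1 to 475 and 192 to 620.4 CPM). Ciliated cell markers were lower in 7 of 8 (median -0.83, sums of 10.8 to 271 and 16.1 to 59.7 CPM). DESeq2 called 1 of these, Foxj1, as lower (0.676% of all genes). Club cell markers were lower in 4 of 6 (median -0.63; sums of 2105 to 11816 and 3244 to 9433 CPM), and fibroblast markers in 5 of 7 (median -0.20; sums of 94.1 to 369.9 and 63.5 to 409.8 CPM). The part of these cells in the members' values was not tested.

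**Figure D5:**
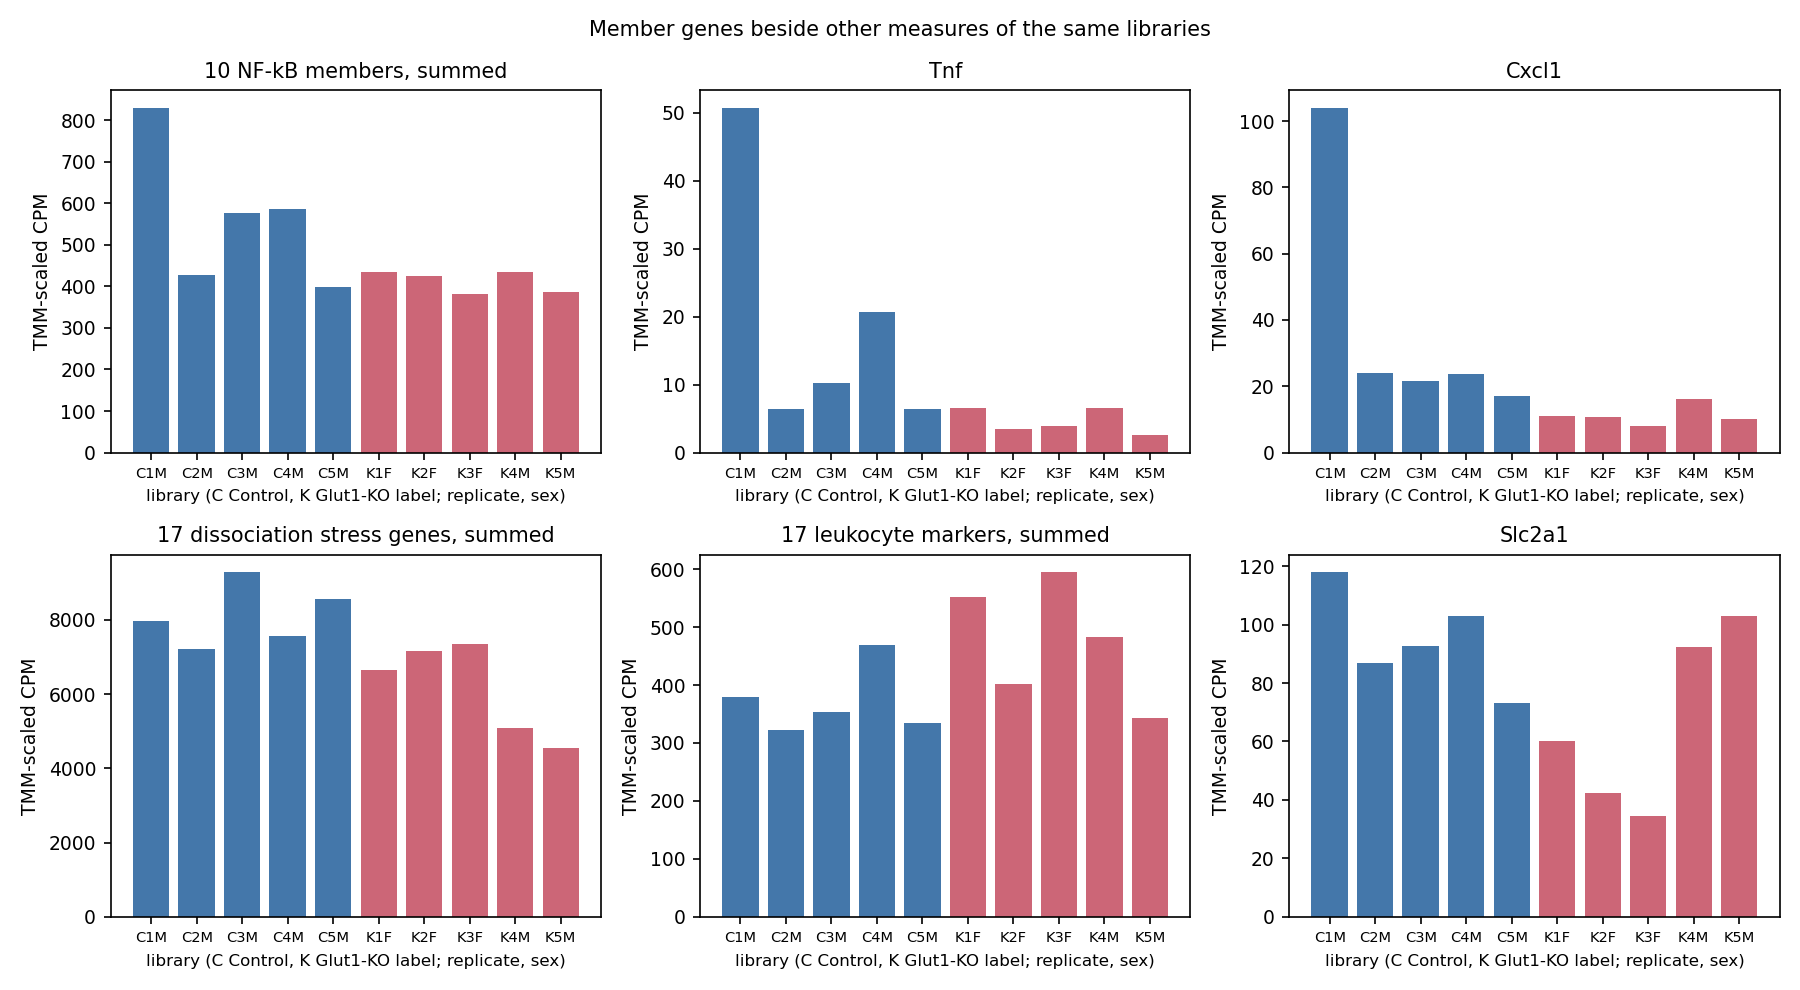
Bars give, in each of 5 Control (C) and 5 Glut1KO (K) libraries with replicate and sex, the TMM-scaled CPM (y axis) of the 10 members summed, Tnf, Cxcl1, 17 dissociation genes summed, 17 leukocyte markers summed, and Slc2a1. Control replicate 1 leads in the members (829.9 CPM), Tnf and Cxcl1 but not in the dissociation sum, and Slc2a1 is low only in Glut1KO replicates 1 to 3.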

How the data were processed

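RNA of the CD45-negative fraction was made into stranded mRNA libraries and sequenced as single-end reads. The submitters' processing notes name bcl2fastq 2.17, cutadapt 1.4.2, HISAT2, build mm10 and featureCounts 1.4.4. The annotation release and the use of strand in counting are not given in the sources used here. The deposited counts are raw reads per Ensembl gene, and the authors' combined table equalled the 10 single files. The deposited log2 values differed from log2(count + 0.5) by a constant per library (SD of the difference at most 1e-08) and were not used further.

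Counts were analysed in R 4.3.3. Genes were kept with edgeR 4.0.16 filterByExpr (minimum count 10, minimum total 15), scaled by TMM and passed through voom (prior count 0.5) to limma 3.58.1 with group as the only term and Benjamini-Hochberg adjustment over 15922 genes at 0.05. In the contrasts within a label, 3 groups shared one estimate of the spread. Alternatives were edgeR's quasi-likelihood test, DESeq2 1.42.0, library totals, no filter, a minimum of 20 TPM, sex as a covariate, males only, a replicate block, sums by name number and leaving out each library. The fit was also run on simulated data with known changes, and the outcome of that run is not reported here. Positions and exon lengths came from GENCODE M21. Member counts ran from 109 (Nfkbie) to 7219 (Tnfaip3) per library.

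The members, the lists by role and the marker lists were chosen with earlier results of these data known. Named were all members, the genes with the smallest limma p of each pathway list (the 2 smallest, or 3 for targets), the remaining subunits and inhibitors, the first 2 markers of each list, Slc2a1, and the 5 genes most like the members. Some named genes are given only by their list's counts.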

Additional observations from a re-analysis of the deposited data

Results flagged for a closer look

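Dixon's test on the gap of 1 library from the rest of its group was applied to 96 groups of 5 libraries, where chance gives about 5 flags. It marked 2, and 0 of the members. Cxcl1 stood at 104 CPM in Control replicate 1, against 17.2 to 23.9 CPM in the other controls. Scgb3a2, a gene of secretory airway cells, stood at 18.9 CPM in Glut1KO replicate 1, against 6.2 to 7.5 CPM in the other libraries labelled Glut1-KO.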

How the results depend on the processing

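Between the groups, limma called 0 genes, DESeq2 215, limma with sex as a covariate 3, with males only 1 and with libraries summed by name number 2, while leaving out 1 library gave 0 to 1 (1 without Control replicate 3). DESeq2 called 1 member and 3 other pathway genes, against 0 of each in limma. The members' median log2 difference ran from -0.56 to -0.20 on leaving out 1 library and from -0.48 to -0.31 under the other settings. Bcl3 turned from -0.09 to 0.40 with sex as a covariate or males only, and Birc3 from 0.14 to -0.08. Nfkbia stayed between -0.78 and -0.54 in all 19 alternatives. Nfkbie and Tnfaip2 were absent from the fit of genes of at least 20 TPM. Between the sexes, DESeq2 called 1196 genes against 8 (6 to 10 leaving out 1 library). Between the controls by name number it called 21 against 0 (0 to 6 leaving out 1 library, with 6 without Control replicate 4, 2 without Control replicate 3 and 1 without Control replicate 5). The cause of these shifts was not tested. Same-numbered replicates of the groups showed little shared deviation (r of 0.04, -0.09, 0.03, 0.20 and -0.13 over 15922 genes). A correlation over all genes does not settle whether the numbers pair samples. With a replicate block, 0 genes were called and the member median was -0.47. Depth limits mainly Nfkbie and Tnfaip2, with 109 and 115 counts in their lowest libraries.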
